A study of Mus musculus with 8 samples.

Results

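The urea cycle and the release of ammonia from glutamine and glutamate were followed through 10 genes, Cps1, Otc, Ass1, Asl, Arg1, Nags, Slc25a15, Slc25a13, Gls2 and Glud1, chosen by symbol from the 11784 genes of the deposited table, where all 10 were present. Livers came from 4 male C57BL/6J mice on a Control diet (TD.140711) and 4 on a Low AA diet (TD.140712), both defined in amino acids, with the Low AA diet taking less of its calories from amino acids and more from carbohydrate. The mice changed diet at 9 weeks of age, ate it for 4 months and were killed after an overnight fast of about 16 hours, a state in which liver catabolism of amino acids is normally high. Poly(A) RNA of whole liver was sequenced, and the values are read counts that the authors scaled for each mouse and rounded, here called scaled read counts. In bulk RNA of this kind, fewer cells of a type and less RNA per cell cannot be told apart.

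The urea cycle turns toxic ammonia into urea, which the kidney excretes, and in mammals the complete cycle runs mainly in hepatocytes around the portal vein. The first steps take place in mitochondria and the later ones in the cytosol, so carriers must move ornithine, citrulline and aspartate across the inner membrane. Ammonia reaches the cycle in part through glutaminase, which splits glutamine, and glutamate dehydrogenase, which splits glutamate. The enzymes as a group are known to increase with protein intake, glucagon and glucocorticoids. The comparison of the diets asks whether the mRNA of this pathway differed after months of low amino acid intake.

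None of the 10 genes differed between the diets at an adjusted p under 0.05 in limma, a linear model fitted over all genes, and none did at an unadjusted p under 0.05. Among all genes 0.399% passed the adjusted threshold and 11.8% the unadjusted one. The values of the diets overlapped for every one of the 10 genes, where 6.81% of all genes did not overlap. Cps1, Arg1 and Slc25a15 were higher on average on the Low AA diet and the other 7 lower. The median log2 difference of the 10 was -0.19, against 0.0023 over all genes, and the single values ran from -0.39 to 0.30. Intervals were wide for several genes, so the values bound the differences and do not show that the diets were equal.

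The genes lie apart in the genome. In the GENCODE annotation of GRCm38, the build that the labels call mm10, Cps1 (ENSMUSG00000025991.8) runs on chromosome 1 from 67123026 to 67231259 and has 38 exons in its longest coding transcript. Otc (ENSMUSG00000031173.13) is on chromosome X from 10252305 to 10321024, with 10 exons. Ass1 lies on chromosome 2 from 31470207 to 31520672, Asl on chromosome 5 from 130011258 to 130029247, and Arg1 on chromosome 10 from 24915221 to 24927484. Nags is on chromosome 11 from 102145513 to 102149477, Slc25a15 on chromosome 8 from 22375551 to 22398597, and Slc25a13 on chromosome 6 from 6041218 to 6217173. Gls2 is on chromosome 10 from 128194457 to 128210004 and Glud1 on chromosome 14 from 34310727 to 34345265. Gls2 overlaps Spryd4 on the opposite strand, and Nags overlaps the antisense gene Gm11586. The libraries were stranded, but whether the counting used strand is not given in the sources used here, so reads of these overlapping pairs may not be told apart.

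Sequences just upstream of the start site differed widely in composition. They are shown for 4 members, Otc as a matrix enzyme of the cycle, Nags as its activator, and both mitochondrial carriers, whose mRNAs had mean differences of opposite sign. Each window holds the 250 bases before the RefSeq start on GRCm38.p6, 5′ to 3′ on the strand of the gene, and capitals mark matches to 7 motifs. The windows lie at chrX:10252055-10252304 on the plus strand for Otc, chr11:102145263-102145512 on the plus strand for Nags, chr6:6217174-6217423 on the minus strand for Slc25a13 and chr8:22398622-22398871 on the minus strand for the outer start of Slc25a15.
Otc: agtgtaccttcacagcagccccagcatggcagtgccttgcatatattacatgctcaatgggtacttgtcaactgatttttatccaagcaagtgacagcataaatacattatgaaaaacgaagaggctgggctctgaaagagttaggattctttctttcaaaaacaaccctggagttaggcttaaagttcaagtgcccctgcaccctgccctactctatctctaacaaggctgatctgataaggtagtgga
Nags: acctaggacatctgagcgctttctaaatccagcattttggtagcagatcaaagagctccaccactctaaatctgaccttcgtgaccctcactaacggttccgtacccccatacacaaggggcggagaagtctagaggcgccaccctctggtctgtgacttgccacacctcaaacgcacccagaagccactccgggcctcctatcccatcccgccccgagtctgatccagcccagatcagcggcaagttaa
Slc25a13: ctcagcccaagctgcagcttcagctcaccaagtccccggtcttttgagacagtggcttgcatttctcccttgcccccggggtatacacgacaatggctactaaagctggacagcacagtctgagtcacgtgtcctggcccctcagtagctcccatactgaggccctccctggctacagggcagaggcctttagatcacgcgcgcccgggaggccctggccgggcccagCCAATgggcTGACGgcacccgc
Slc25a15: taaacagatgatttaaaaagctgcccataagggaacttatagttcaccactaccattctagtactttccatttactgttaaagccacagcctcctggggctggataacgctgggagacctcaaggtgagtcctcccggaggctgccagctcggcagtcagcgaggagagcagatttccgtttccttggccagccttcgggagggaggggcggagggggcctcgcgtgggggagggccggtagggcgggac
Otc had 43.6% G and C and a single CpG in its window, Nags 55.6%, Slc25a15 57.6% and Slc25a13 62.8% with 11 CpG each, against a median of 52.4% and 6 CpG over 32851 windows. Glud1, not printed, had 82.0% G and C and 46 CpG. The window of the inner start of Slc25a15, also not printed, had 80.4% and 43 CpG. RefSeq windows were matched for 6 of the 10 members. The motifs, searched on both strands, were TGACG (half-site of the cAMP response element), TTGCNNAA (C/EBP), AGAACA (half-site of the glucocorticoid receptor), CAAAGTNCA (HNF4), TGATGNAA (amino acid response element bound by ATF4), CCAAT and TATAAA. Only the Slc25a13 window held matches among the members with a window, CCAAT starting 22 bases and TGACG starting 13 bases before the start site, in separate positions. Among all windows 33.8% held CCAAT, 17.8% TGACG, 16.1% AGAACA, 12.4% TATAAA, 9.56% TTGCNNAA, 3.45% TGATGNAA and 1.19% CAAAGTNCA. The absence of a match says only that these letters are not in the window.

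Together the 10 genes held 1.08% ± 0.366 (SD, n = 4) of all scaled read counts in the Control mice and 1.13% ± 0.102 (SD, n = 4) in the Low AA mice, with Cps1 alone at 0.534% ± 0.250 and 0.597% ± 0.0570. To compare levels between genes, values were divided by the length of the longest coding transcript. Per kilobase in the Control mice, Arg1 stood highest at 33885 ± 12612 scaled read counts (SD, n = 4), and Cps1 followed at 27862 ± 12633. Values of these genes overlapped, so their order is not settled. Ass1 at 11306 ± 2089 and Asl at 11007 ± 3641 were next and overlapped each other, and Cps1 and Ass1 overlapped as well through the low Cps1 of mouse F2212. Below a gap without overlap came Glud1 at 6000 ± 1284 and Slc25a15 at 4572 ± 816, then, again without overlap, Slc25a13 at 3376 ± 334, Gls2 at 2593 ± 591 and Otc at 2285 ± 263. Nags, whose product makes a regulator and no intermediate in bulk, was lowest at 701 ± 43.5, below every other member in all Control mice. Both gaps above Otc depended on the length used. With all exons of a gene counted, Asl at 5498 ± 1819 overlapped Glud1 at 4831 ± 1034, and Slc25a15 at 2786 ± 497 overlapped Slc25a13 at 2774 ± 274 (SD, n = 4 each). Cps1 then stood above Arg1, at 22463 ± 8361, and 8 of the 10 genes kept their rank.

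**Figure D1:**
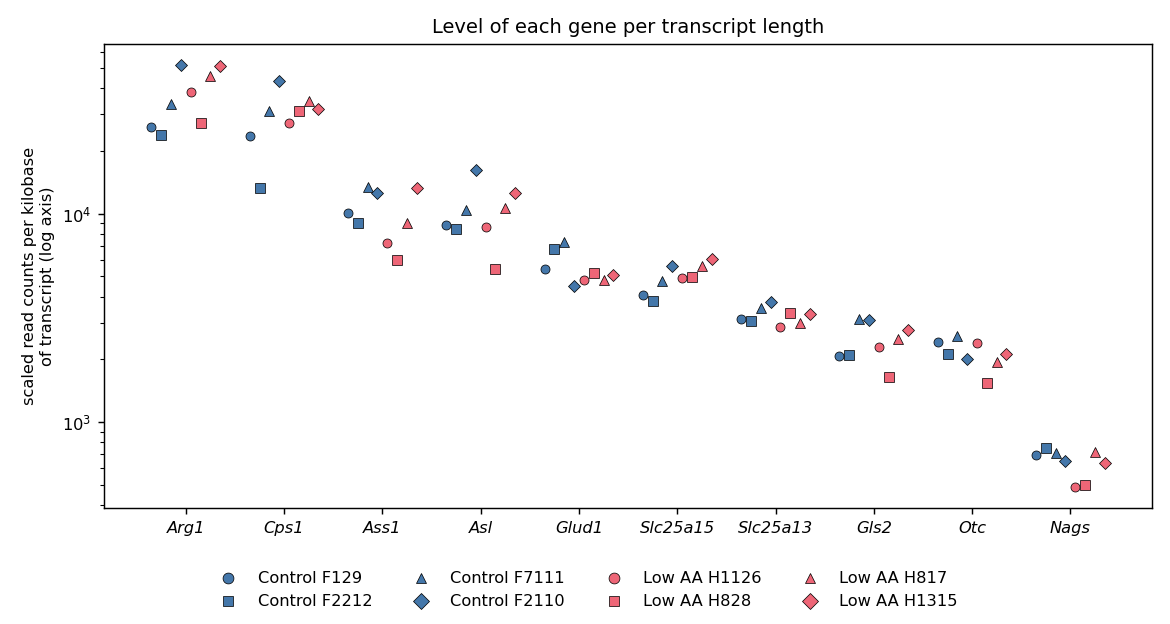
Scaled read counts per kilobase of longest coding transcript on a log axis, for each of the 10 genes and 8 mice, ordered by the Control mean; each symbol is 1 mouse and equal shapes do not pair mice. Levels run from 701 for Nags to 33885 for Arg1 on the Control diet, and the diets overlap at each gene.

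Cps1 encodes carbamoyl phosphate synthetase, the mitochondrial enzyme that captures ammonia and commits it to the cycle. Its scaled read counts were 131511, 74154, 172542 and 240897 in Control mice F129, F2212, F7111 and F2110, and 151250, 172563, 192624 and 176777 in Low AA mice H1126, H828, H817 and H1315. The Low AA mice were close together and lay inside the Control range, which spanned 3.25-fold from F2212 to F2110. On the log2 scale the Low AA mean was 0.28 higher (standard error 0.30, 95% interval -0.38 to 0.95, limma adjusted p = 0.783). Without F2110 it was 0.54. Without F2212 the difference changed sign, to -0.029 (adjusted p = 0.974, against 0.475 to 0.974 over the fits that leave out 1 mouse).

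Otc encodes ornithine transcarbamylase, which joins carbamoyl phosphate to ornithine and makes citrulline in the matrix. It had 7248, 6352, 7747 and 6043 in the Control mice and 7152, 4610, 5818 and 6356 in the Low AA mice, in the same order of mice. Low AA mouse H828 was the lowest of the 8, and H1126 and H1315 lay among the Control mice. Its log2 difference between diets was -0.21 (standard error 0.14, 95% interval -0.52 to 0.11, limma adjusted p = 0.646), and without H828 it was -0.086.

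Ass1, argininosuccinate synthetase, brings in the other nitrogen of urea as aspartate. Its values were 17042, 15368, 22839 and 21451 in the Control mice and 12342, 10197, 15321 and 22576 in the Low AA mice. On the Low AA diet 3 of the 4 mice lay below every Control mouse, though H817 was only just below F2212. H1315 was close to the highest Control mouse. Ass1 had the most negative difference of the 10, -0.39 on the log2 scale (standard error 0.23, 95% interval -0.90 to 0.12, limma adjusted p = 0.569). Without H828 it was -0.22, and without H1315 it was -0.60 (adjusted p = 0.217, the lowest of any of the 10 genes in 18 fits, with 0.217 to 0.816 for Ass1 over the fits that leave out 1 mouse).

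Asl, argininosuccinate lyase, splits the product of Ass1 into arginine and fumarate. It had 21439, 20348, 25064 and 39388 in the Control mice and 20751, 13101, 25855 and 30453 in the Low AA mice, so that F2110 was the highest and H828 the lowest. For Asl the log2 difference was -0.25 (standard error 0.27, 95% interval -0.86 to 0.36, limma adjusted p = 0.79). It was -0.014 without H828, -0.045 without F2110 and -0.42 without H1315.

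Arg1, arginase, cuts arginine into urea and ornithine and closes the cycle. Its values were 38687, 35475, 49538 and 76493 on the Control diet and 57071, 40350, 67536 and 75770 on the Low AA diet. H828 was the lowest Low AA mouse and F2110 the highest Control mouse, as for Asl. The log2 difference had the opposite sign, 0.30 (standard error 0.26, 95% interval -0.28 to 0.87, limma adjusted p = 0.735). With 1 mouse left out it ran from 0.15, without F2212, to 0.52, without F2110, and also moved by over 1.5 times without F129, H828 or H1315. As folds, the interval of Arg1 ran from 0.824 to 1.83, that of Cps1 from 0.768 to 1.93 and that of Asl from 0.551 to 1.28.

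**Figure D2:**
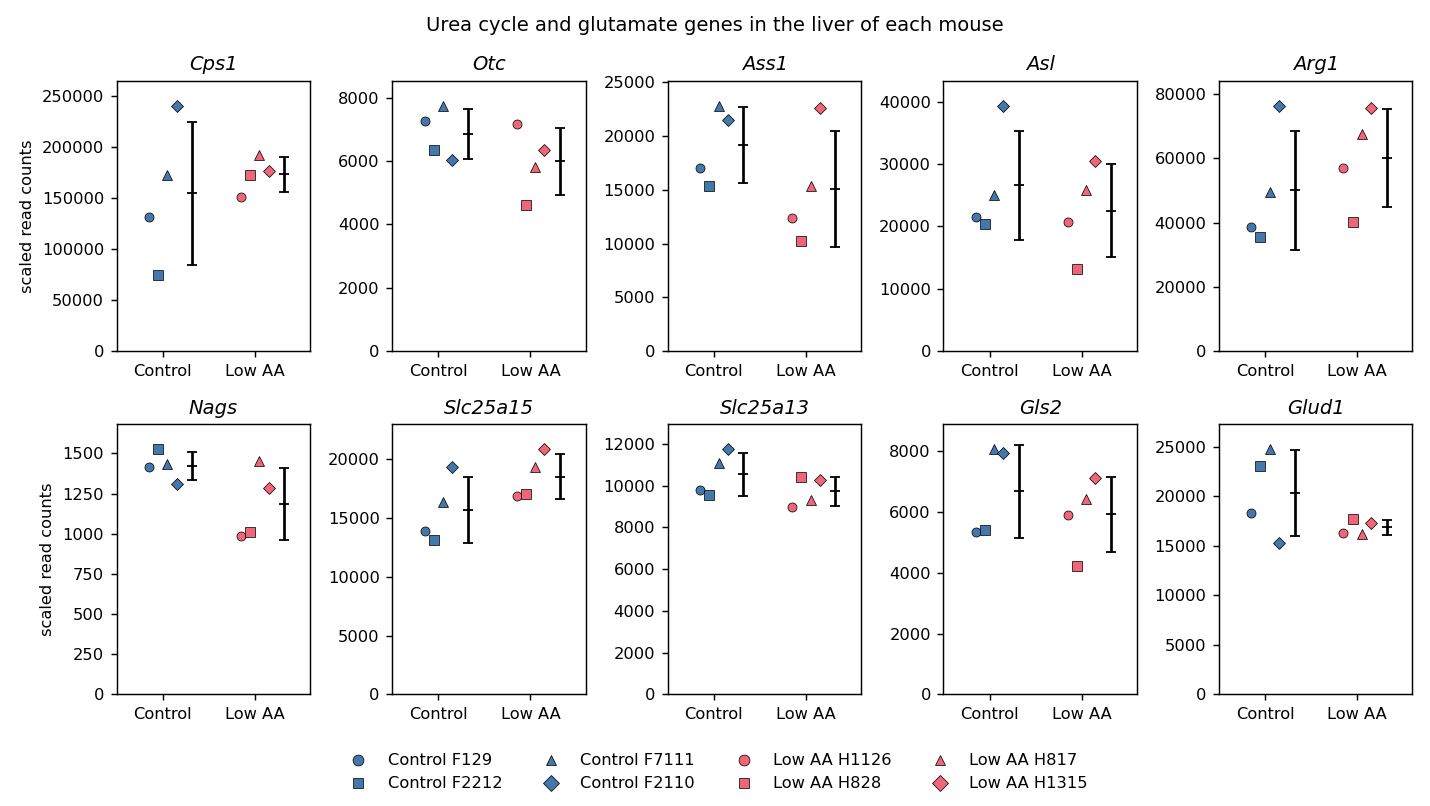
Scaled read counts for each of the 10 genes; each symbol is 1 mouse, bars give the mean and SD of 4 mice, axes start at 0 and equal shapes do not pair mice. The diets overlap in every panel, and the Control values of Cps1 span from 74154 to 240897.

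Nags makes N-acetylglutamate, without which carbamoyl phosphate synthetase is inactive. It had 1413, 1527, 1434 and 1312 in the Control mice and 987, 1010, 1453 and 1286 in the Low AA mice. H1126 and H828 lay well below the Control mice, H1315 just below them and H817 among them. The log2 difference of -0.28 (standard error 0.13, 95% interval -0.58 to 0.02, limma adjusted p = 0.459) had the lowest unadjusted p of the 10 genes, 0.0624.

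Slc25a15, the ornithine carrier, exchanges ornithine for citrulline between cytosol and matrix. Its values were 13926, 13098, 16380 and 19325 in the Control mice and 16857, 17002, 19365 and 20863 in the Low AA mice. Every Low AA mouse was above 3 of the 4 Control mice, with F2110 the exception. Slc25a15 had a log2 difference of 0.25 (standard error 0.14, 95% interval -0.06 to 0.56, limma adjusted p = 0.533).

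Slc25a13, known as citrin, exports aspartate from the matrix in exchange for glutamate and so supplies Ass1. It had 9774, 9564, 11056 and 11746 on the Control diet and 8966, 10387, 9298 and 10253 on the Low AA diet. Its interval was the narrowest of the 10 genes, with a log2 difference of -0.11 (standard error 0.10, 95% interval -0.34 to 0.12, limma adjusted p = 0.747), or a fold between 0.789 and 1.08. The difference was -0.059 without F2110 and -0.075 without H1126.

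Gls2 encodes the liver type of glutaminase. It had 5316, 5394, 8055 and 7919 in the Control mice and 5893, 4225, 6426 and 7102 in the Low AA mice, and both diets spread over much the same range. Their log2 difference was -0.17 (standard error 0.19, 95% interval -0.60 to 0.26, limma adjusted p = 0.802). It ran from -0.27, without F129, to -0.019, without H828, and moved by over 1.5 times without any 1 mouse but H1126 and H817. Spryd4, which overlaps it on the other strand, had 835 to 1030 on the Control and 572 to 1015 on the Low AA diet, with H828 lowest for both genes.

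Glud1, glutamate dehydrogenase, releases ammonia from glutamate in mitochondria. Its values were 18325, 23044, 24749 and 15240 in the Control mice and 16256, 17712, 16224 and 17245 in the Low AA mice. Control mice spread over 1.62-fold and Low AA mice over 1.09-fold, inside the Control range. The log2 difference was -0.25 (standard error 0.15, 95% interval -0.58 to 0.08, limma adjusted p = 0.581), and it was -0.14 without F7111 and -0.38 without F2110.

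**Figure D3:**
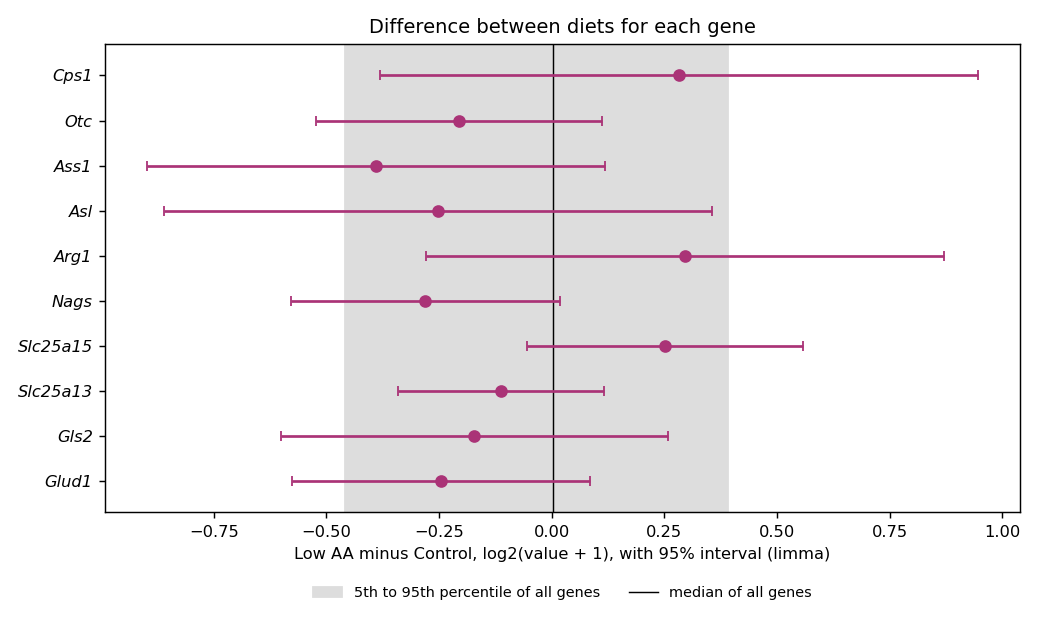
Low AA minus Control difference in log2(value + 1) for each gene with its 95% limma interval; the grey band holds the 5th to 95th percentile of all 11784 genes, -0.46 to 0.39, and the line their median. Every interval includes 0, and all 10 points lie inside the band.

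Spread between mice of one diet was large for part of the pathway. The SD within diets on the log2 scale was 0.52 for Cps1, 0.48 for Asl, 0.45 for Arg1 and 0.40 for Ass1, above 94.2%, 92.9%, 91.0% and 87.3% of all genes. It was 0.12 for Slc25a13 and 0.20 for Nags, above 14.8% and 45.1% of genes. Several genes shared their highest or lowest mouse. Control mouse F2110 was the highest of its diet for 5 of the 10 genes, Cps1, Asl, Arg1 and both carriers, and the lowest for Otc, Nags and Glud1. F2212 was the lowest Control mouse for 6, Cps1, Ass1, Asl, Arg1 and both carriers. On the Low AA diet H1315 was highest for 5, Ass1, Asl, Arg1, Slc25a15 and Gls2, and H828 was lowest for 5, Otc, Ass1, Asl, Arg1 and Gls2. F2212 also stood apart for other genes of this liver, with 57733 scaled read counts of Saa1, an acute-phase gene, against 68 to 2818 in the other mice, and with 36587 of Cela1, a pancreas gene, against 130 to 288. No other pancreas marker that was searched for has a value here. Whether the Saa1 and Cela1 values of F2212 bear on its low Cps1 was not tested.

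Ratios within a mouse do not depend on the scaling of that mouse. Arg1 to Asl was 1.80, 1.74, 1.98 and 1.94 in Control mice F129, F2212, F7111 and F2110, and 2.75, 3.08, 2.61 and 2.49 in Low AA mice H1126, H828, H817 and H1315. The diets did not overlap in this ratio, although they overlapped in each gene alone. It averaged 1.87 ± 0.111 in the Control and 2.73 ± 0.255 in the Low AA mice (SD, n = 4 each), and the log2 difference of 0.55 stayed between 0.49 and 0.59 when each mouse was left out. For the other 7 ratios of linked steps, Otc to Cps1, Ass1 to Otc, Asl to Ass1, Nags to Cps1, Slc25a15 to Otc, Slc25a13 to Ass1 and Glud1 to Gls2, the diets overlapped. Among all 45 pairs of the 10 genes, 4 did not overlap, or 8.89%, where 7.5% of all pairs of genes in the table did not, so the count is near the background. The others were Ass1 to Slc25a15, with 1.23 ± 0.122 in the Control and 0.801 ± 0.204 in the Low AA mice, Asl to Slc25a15, with 1.67 ± 0.249 and 1.20 ± 0.301, and Slc25a15 to Gls2, with 2.38 ± 0.247 and 3.21 ± 0.547 (SD, n = 4 each). Of all other genes set against Asl, 0.772% gave a ratio without overlap, and of those set against Arg1, 1.35%. The 8 linked ratios follow the order of the steps but were added after the values of the genes had been seen, and the other pairs were picked by their values, so no test is given.

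**Figure D4:**
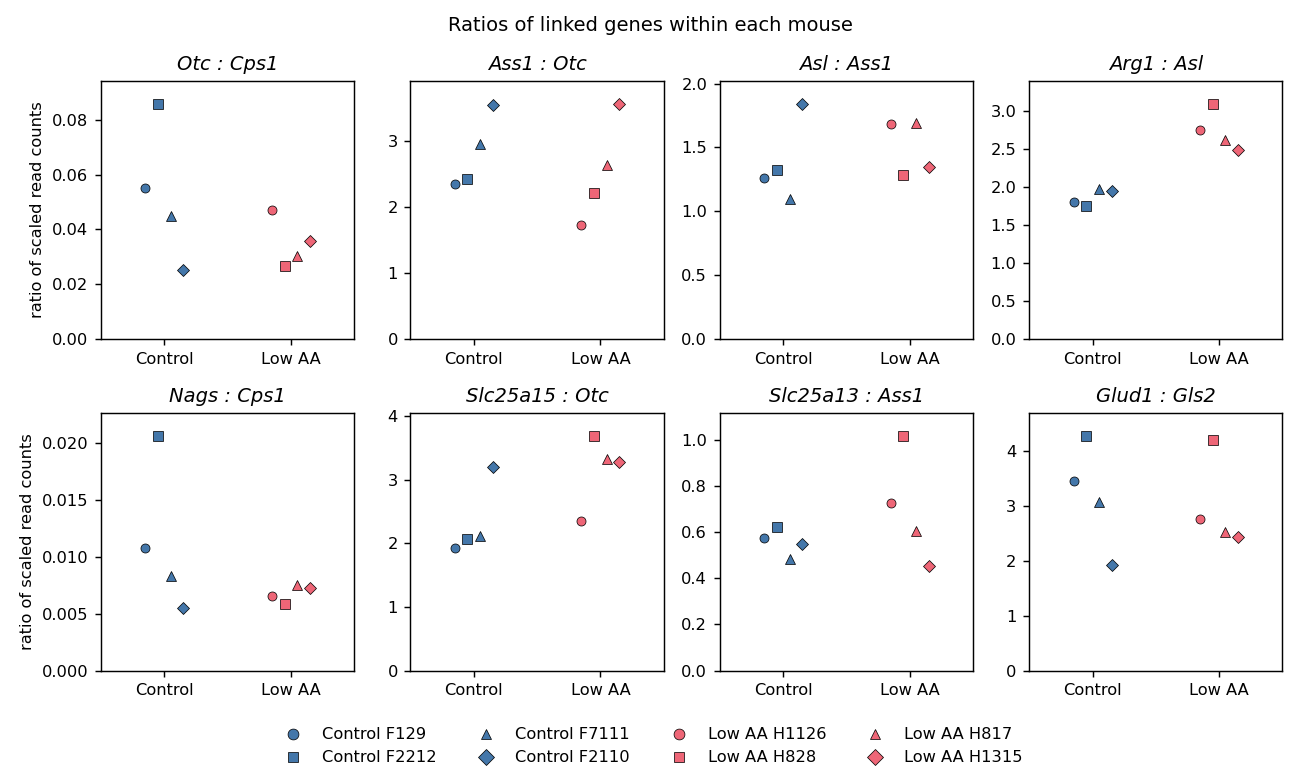
Ratios of scaled read counts of 8 linked pairs of genes within each mouse; each symbol is 1 mouse, axes start at 0 and equal shapes do not pair mice. Arg1 to Asl lies between 1.74 and 1.98 in the Control mice and between 2.49 and 3.08 in the Low AA mice, and the other pairs overlap.

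Genes that feed or draw on the cycle were taken from 5 further lists. Measured were 12 genes of arginine and ornithine use, 14 of glutamate and glutamine handling, 10 of bicarbonate and fumarate handling and 13 regulators. The last list held 8 genes that respond to glucagon, insulin or glucocorticoids. None passed the adjusted threshold in limma. In this order, 0, 4, 4, 0 and 2 reached an unadjusted p under 0.05. Of those, Slc25a12, Asns, Fh1, Mdh2, G6pc and Igfbp1 were higher on the Low AA diet, and Slc38a3, Slc1a2, Car5a and Adssl1 lower. Among all genes 11.8% reached it, a share that the glutamate, bicarbonate and hormone lists exceeded and the other lists did not. The lists were chosen with earlier results of these data known, so the excess is no test of them. Median log2 differences of the lists were -0.095, 0.043, 0.045, 0.035 and 0.14. Only Slc25a12 was higher on the Low AA diet without overlap, as were 3.26% of all genes, and only Car5a was lower, as were 3.55% of all genes.

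Slc25a12, also called aralar, does the same exchange of aspartate and glutamate as Slc25a13. It had 613, 495, 517 and 705 in the Control mice and 796, 779, 818 and 874 in the Low AA mice, each of them above every Control mouse. Slc25a12 had a log2 difference of 0.50 (standard error 0.12, 95% interval 0.22 to 0.78, limma adjusted p = 0.133), which did not pass and ran from 0.102 to 0.352 over the fits that leave out 1 mouse. Per kilobase it stood at 91.7 ± 15.2 scaled read counts in the Control mice, far below the 3376 ± 334 of Slc25a13 (SD, n = 4 each).

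Car5a encodes the mitochondrial carbonic anhydrase that supplies bicarbonate to carbamoyl phosphate synthetase. It had 696, 842, 1046 and 772 in the Control mice and 491, 302, 347 and 693 in the Low AA mice, each of these below every Control mouse, though H1315 was only just below F129. Its mean log2 difference was -0.93 (standard error 0.24, 95% interval -1.46 to -0.40, limma adjusted p = 0.146) and did not pass. Without H1315 the adjusted p was 0.0513, within a range of 0.0513 to 0.399 over the fits that leave out 1 mouse.

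Other counterparts of the 10 genes gave no call. Glul, glutamine synthetase, which traps ammonia around the central vein, had 21576 to 34522 scaled read counts on the Control and 22654 to 26170 on the Low AA diet, a log2 difference of -0.16 (limma adjusted p = 0.736), which was -0.049 without F7111 and -0.27 without F2110. Oat, ornithine aminotransferase, which removes ornithine, had 57915 to 81005 and 39484 to 72709, a log2 difference of -0.41 (limma adjusted p = 0.474). The cytosolic and mitochondrial aspartate aminotransferases, Got1 and Got2, had log2 differences of 0.39 and 0.073 (limma adjusted p = 0.653 and 0.833). That of Got1 was 0.19 without H1315, 0.23 without F129 and 0.61 without F2110, and that of Got2 was 0.032 without H1315 and 0.12 without H828. Arg2, Slc25a2 and Slc25a18 have no value here. The highest positive differences in these lists were those of Asns, asparagine synthetase, at 1.30 (limma adjusted p = 0.321), and Igfbp1, at 1.27 (limma adjusted p = 0.416). Without H1315 that of Asns was 0.83, and without F7111 that of Igfbp1 was 0.84. Both were named after their values were seen, and their diets overlapped.

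**Figure D5:**
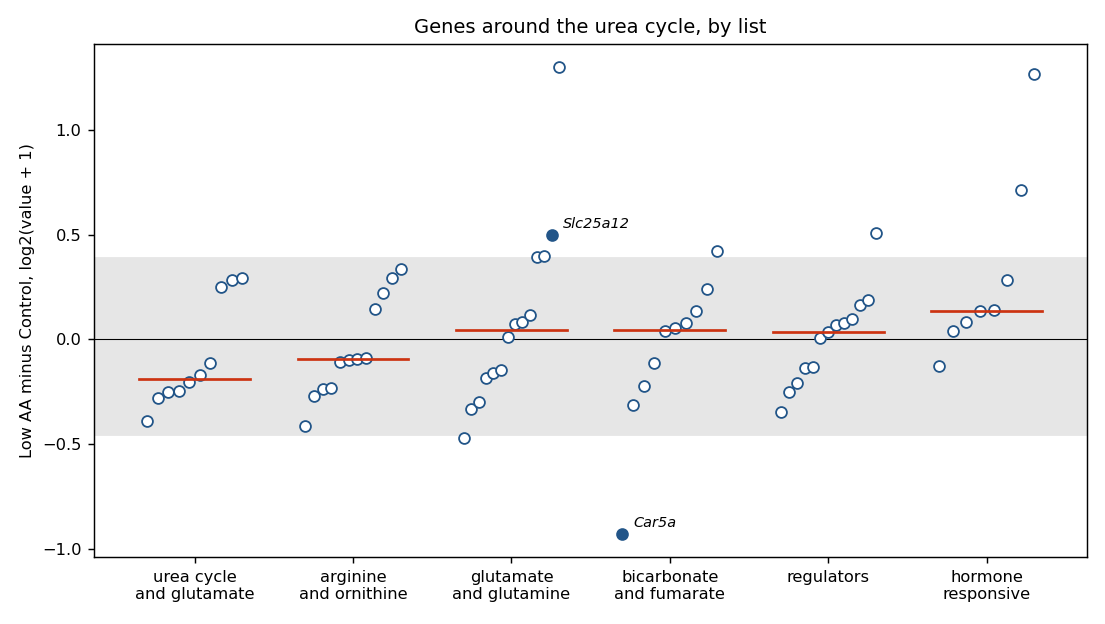
Low AA minus Control difference in log2(value + 1) for every measured gene of 6 lists; filled points are genes whose diets do not overlap, red lines are list medians and the grey band holds the 5th to 95th percentile of all genes. Slc25a12 at 0.50 and Car5a at -0.93 are the filled points, and the 10 urea cycle and glutamate genes are all open.

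Markers placed the samples as liver on both diets. Alb ranged over 1321262 to 1665949 scaled read counts on the Control diet and 1514301 to 1789498 on the Low AA diet. Of 8 markers of periportal hepatocytes, the cells that hold the cycle, none passed and 2 were lower without overlap, Cyp2f2 at -0.77 and Pigr at -0.73 on the log2 scale (limma adjusted p = 0.131 and 0.0793), where 3.55% of all genes were lower without overlap. On average 5 of the 8 were lower and 3 higher, with a median log2 difference of -0.11. Summed over the 8, levels were 200002 to 247952 on the Control diet and 172608 to 218575 on the Low AA diet. None of 10 pericentral markers passed, with a median log2 difference of -0.21 and sums of 389642 to 531273 and 360284 to 530346. On average 8 of the 10 were lower and 2 higher. Of the markers of Kupffer cells (8 measured), endothelial cells (7), stellate cells (8) and bile duct cells (4), none passed either, and their sums overlapped between diets. All 8 Kupffer cell markers were higher on average, with a median log2 difference of 0.23, and all 4 bile duct markers lower, with a median of -0.62. Among the stellate markers Col1a1, a collagen gene, was lower without overlap, at -1.07 (limma adjusted p = 0.148), where 3.55% of all genes were. Of the 8 stellate markers 3 were higher on average and 5 lower, with a median log2 difference of -0.025. All 4 measured blood markers were lower on average, with a median of -0.49, where 5955 of all genes were higher and 5829 lower. Alas2, an enzyme of heme synthesis in red cells, was lower without overlap, at -0.49 (limma adjusted p = 0.266), where 3.55% of all genes were. Reaching an unadjusted limma p under 0.05 were 2 periportal, 2 pericentral, 1 Kupffer cell, 1 stellate, 2 bile duct and 2 blood markers. No endothelial marker did. Among all genes 11.8% did, and these lists were chosen with earlier results known. Kupffer cell sums were 7524 to 11136 and 7979 to 11333, and endothelial sums 5425 to 7666 and 6594 to 7240. Stellate sums were 7806 to 10146 and 8334 to 10377, and bile duct sums 1124 to 2265 and 826 to 1316. Single abundant markers weighed heavily in the sums of some lists. Control means were 144111 for Pck1 (periportal), 355395 for Cyp2e1 (pericentral), 5890 for Dcn (stellate) and 1270 for Spp1 (bile duct). Overlap of those sums therefore says little about the other markers. Of 9 acute-phase genes none passed and 7 were lower on average. An unadjusted limma p under 0.05 was reached by 3, Saa1, Orm1 and Apcs, against 11.8% of all genes. Apcs was higher, at 1.03 (limma adjusted p = 0.192), with overlap between diets. Saa1, at -3.49, and Orm1, at -2.06, were lower without overlap (limma adjusted p = 0.261 and 0.0908), where 3.55% of all genes were. Acute-phase sums were 188513 to 390803 and 171423 to 213919, with the highest in F2212. The part of these genes in the results above was not tested.

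The genes outside the pathway whose mouse-to-mouse pattern was most like the mean of the 10 were Orc2, Myadm and Ranbp6. Likeness was the root mean square difference over 8 mice of log2 values centred on their own mean, and was 0.061, 0.062 and 0.067 for these. For the members themselves it ran from 0.12 for Gls2 to 0.38 for Cps1. This is a description over few mice.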

How the data were processed

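Poly(A) RNA from the livers of 8 mice was sequenced from stranded libraries. The labels list bcl2fastq 1.8.2, STAR 2.5.0a, RSEM 1.2.6, edgeR 3.10.5, R 3.2.1 and mm10 without their roles, and name no annotation, which is not given in the sources used here. A table that the authors deposited holds 1 signal for each gene and mouse, a read count scaled by a factor for each mouse and rounded. Its columns with the authors' own fold change and FDR were left unused. Scaling was inferred from gaps and doublings among low values, with fitted factors of 0.902 to 1.11. Column totals were 27876664 to 30799385, equal to about 26945848 to 31544122 reads before scaling. No gene lacked 3 mice with a value of 28 or more, so low genes had been removed. Since exact counts were not held, count models were not run.

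The diets were compared on the log2(value + 1) scale by limma 3.58.1 (R 4.3.3) using the trend option. P-values were adjusted across all genes by the Benjamini-Hochberg method, and an adjusted p under 0.05 was called. Requiring 4 mice with a value of 1 or more removed no gene. The fit was tested on simulated data with known changes. Gene lists, members and markers were chosen with earlier results of these data known, so no p over the list alone is given. Genes named in the text were the 10 members, their close counterparts, genes of the 5 pathway lists called or without overlap between diets, the 3 genes most like the members, and Saa1, Cela1 and Alb. A further counterpart is not reported here. Asns, Igfbp1, Cyp2f2, Pigr, Col1a1, Alas2, Orm1, Apcs, Pck1, Cyp2e1, Dcn, Spp1 and Spryd4 were named after their values were seen. So were Fh1, Mdh2, G6pc, Slc38a3, Slc1a2 and Adssl1. The ratios and the alternatives for them, Asns and Igfbp1 were chosen after seeing the data. Alternatives were pseudocounts of 0.1 and 5, no filter, the 8000 genes with the highest mean, equal column totals, a median of ratios, no trend, robust moderation, vooma weights, a threshold of 0.1, other lengths and each mouse left out. Transcript lengths came from GENCODE and promoter windows from RefSeq tables. Figures were drawn with matplotlib 3.10.9. P-values set the difference between diets against the spread between mice of one diet, which limma moderates across genes. The mice were group housed and their cages are not given, so cage could not be taken into account.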

Additional observations from a re-analysis of the deposited data

Results flagged for a closer look

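On the log2 scale Control mouse F2212 stood far above the other Control mice for Cela1 (gap over range 0.945). Low AA mouse H828 stood far below the other Low AA mice for Saa1 (gap over range 0.860) on the same scale. Saa1 in F2212, with 57733 scaled read counts against 1068 to 2818 in the other Control mice, was not flagged on it. Of 40 groups of 4 mice examined, 2 stood out. Chance gives about 1 in 20 for genes picked without regard to their values. Cela1 and Saa1 were chosen with earlier results of these data known, so the count cannot be set against that rate. None of the 20 groups formed by the 10 urea cycle and glutamate genes stood out.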

How the results depend on the processing

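None of the 10 genes passed an adjusted p under 0.05 in limma in any of 18 fits, nor at a threshold of 0.1, and none of the 5 pathway lists gained a call in the 18 fits. The number of genes called over the whole table, 47, was 19 among the 8000 genes with the highest mean, 30 without the trend and 132 at a threshold of 0.1. It ran from 16, without Low AA mouse H817, to 77, without Control mouse F2212, and was 29 without F129, 21 without H1126 and 19 without H828. The cause was not tested. The median log2 difference of the 10 genes, -0.19, ran from -0.25 to -0.052 with a mouse left out. Cps1 changed sign without F2212, with a range of -0.029 to 0.54. Of the 10 genes, 6 kept their rank per kilobase when the Low AA mice were used and 8 when all exons were counted. No paired analysis was possible because the labels give no number shared between diets. Count models were not run, because the values are scaled. With 4 mice per diet, the smallest two-sided p of an exact permutation test is 0.0286.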
